A study of Mus musculus with 48 samples.

Results

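The genes examined were 10 genes of blood vessel growth and of the vessel lining, measured in whole kidneys of lupus-prone mice: the growth factors Vegfa, Vegfc and Pdgfb, the receptors Kdr, Flt1, Tek and Eng, and the endothelial proteins Vwf, Pecam1 and Egfl7. They were taken by gene symbol and had 17 probes among the 25697 probes and 16593 named genes of the array. The mice were female NZB/W F1 hybrids, which develop lupus nephritis with age. Nephritic mice were killed 2 to 3 weeks after proteinuria exceeded 300 mg/dl and before blood urea nitrogen exceeded 25 mg/dl. Young mice were killed at 12 weeks, before disease. Kidneys were taken at 6 Zeitgeber times (ZT), 4 h apart, where ZT0 is lights on and ZT12 lights off. The nephritic groups held 3 arrays each, except for 5 each at ZT8 and ZT12, and the young groups held 4 arrays each, except for 6 at ZT12. All 48 kidneys were perfused with saline before RNA extraction, and the labels name no drug or transgene. The nephritic mice were also the older ones, so disease and age cannot be told apart in any comparison below.

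VEGF-A is secreted in the kidney mainly by podocytes and tubular cells and acts on the endothelium through KDR (VEGFR2), while FLT1 (VEGFR1) binds it and acts largely as a decoy. VEGF-C acts on lymphatic and blood vessels. Tek encodes TIE2, the receptor of the angiopoietins, which keeps endothelium quiescent. Endoglin (Eng) is a co-receptor for TGF-beta and BMP ligands, von Willebrand factor (Vwf) is the endothelial and platelet protein that tethers platelets, PECAM-1 is an adhesion molecule of endothelial junctions that leukocytes and platelets also carry, EGFL7 is a secreted endothelial protein, and PDGF-B is the endothelial signal that recruits pericytes and mesangial cells.

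RefSeq (GRCm38.p6) promoters were given for 7 of the 10 genes, at 10 start sites, and not for Vwf, Pecam1 and Pdgfb. Those printed here are the 250 bases before the start site of the ligand with the largest fall (Vegfa, chr17:46032378-46032627, minus strand), of the receptors that varied together over the 22 nephritic arrays (Flt1, chr5:147726012-147726261, minus strand, and Tek, chr4:94739039-94739288, plus strand) and of the receptor that rose (Eng, chr2:32646345-32646594, plus strand). Capitals mark matches to any of the 9 motifs searched on both strands, and the matches shown are all to GGGCGG.
Vegfa: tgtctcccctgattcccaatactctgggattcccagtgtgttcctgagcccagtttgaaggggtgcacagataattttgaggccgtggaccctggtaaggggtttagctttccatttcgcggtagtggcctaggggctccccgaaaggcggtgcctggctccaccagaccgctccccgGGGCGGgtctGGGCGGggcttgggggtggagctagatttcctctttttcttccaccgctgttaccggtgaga
Flt1: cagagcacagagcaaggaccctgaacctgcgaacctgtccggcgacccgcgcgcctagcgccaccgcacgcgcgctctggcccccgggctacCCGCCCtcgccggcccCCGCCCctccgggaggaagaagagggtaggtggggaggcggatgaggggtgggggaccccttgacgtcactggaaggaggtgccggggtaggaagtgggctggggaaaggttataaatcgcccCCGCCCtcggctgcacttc
Tek: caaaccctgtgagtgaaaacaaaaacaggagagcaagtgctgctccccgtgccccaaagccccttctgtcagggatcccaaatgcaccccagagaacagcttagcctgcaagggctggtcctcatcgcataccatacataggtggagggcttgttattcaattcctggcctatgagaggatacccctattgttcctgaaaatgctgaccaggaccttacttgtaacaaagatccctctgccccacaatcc
Eng: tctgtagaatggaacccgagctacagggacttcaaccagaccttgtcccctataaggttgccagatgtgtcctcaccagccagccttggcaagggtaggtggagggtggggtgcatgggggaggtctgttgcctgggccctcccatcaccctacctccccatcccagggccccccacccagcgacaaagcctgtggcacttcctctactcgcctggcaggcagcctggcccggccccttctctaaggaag
The GC box GGGCGG was matched in 6 of the 10 promoters (of Vegfa at both start sites, Vegfc, Kdr, Flt1 and 1 of 3 Egfl7 start sites), against 32.7% of 32851 mouse promoters. The nuclear receptor element AGGTCA was matched before 1 Egfl7 start site (14% of all promoters) and ACGTG, the core of the hypoxia response element, before the second Vegfa start site (16.6%). The E-box CACGTG, which contains ACGTG (6.02% of all promoters), the D-boxes TTATGTAA (0.819%) and TTACGTAA (0.113%), the ETS site CCGGAAGT (2.88%), the AP-1 site TGACTCA (4.46%) and the GATA site GATAAG (6.55%) had no match in the 250 bases before any of the 10 start sites. The Tek and Eng windows held no match to any motif.

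Egfl7 (chr2:26581083-26592682, plus strand) is the host gene of miR-126, an endothelial miRNA, and is shown with it because the arrays measured the host transcript and not the miRNA. The mature mmu-miR-126a-3p of RefSeq lies at chr2:26591402-26591423, inside Egfl7, with the seed (bases 2 to 8) in capitals.
mmu-miR-126a-3p: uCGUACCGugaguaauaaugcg

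Each array gave 1 signal per probe, with a median of 98.14 to 117.9 before normalization and 12706 to 14077 probes detected over background. Values below are normalized signals on the log2 scale, and differences are nephritic minus young on that scale. Of the 17 probes, 12 were detected on all 48 arrays and 16 passed the filter of detection on at least 3 arrays, which kept 16980 probes in all, and a further Vegfa probe was detected on 0 arrays. Where a gene had several probes, the one with the highest mean over all arrays is called its main probe. The Kdr probe (detected on 7 nephritic and 6 young arrays) and the other probes of Flt1, Pdgfb and 1 of Egfl7 lay near background, and their values are close to bounds. A set of 8 nephritic arrays, namely the 6 of ZT0 and ZT4, ZT16 replicate 3 and ZT20 replicate 3, stood apart from the other 14. The poly(A)-binding protein gene Pabpc1 read 5.94 to 6.69 on those 8, 8.20 to 9.51 on the other nephritic arrays and 8.52 to 9.37 on young arrays. Level, time and interaction results of the 10 genes and level results of the gene lists are also given without them, over ZT8 to ZT20, where that changes a call or a direction. Nephritic ZT8 replicate 4 was the lowest nephritic array for 5 of the 10 genes (Egfl7, Eng, Pecam1, Tek and Vwf) and for 11 of 18 endothelial marker genes, against 5.61% of all probes. The labels do not say which cell a transcript came from, and in bulk RNA fewer cells of a type and less RNA per cell cannot be told apart. Replicates are separate samples with no further description, so p-values measure the spread between these samples.

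**Figure D1:**
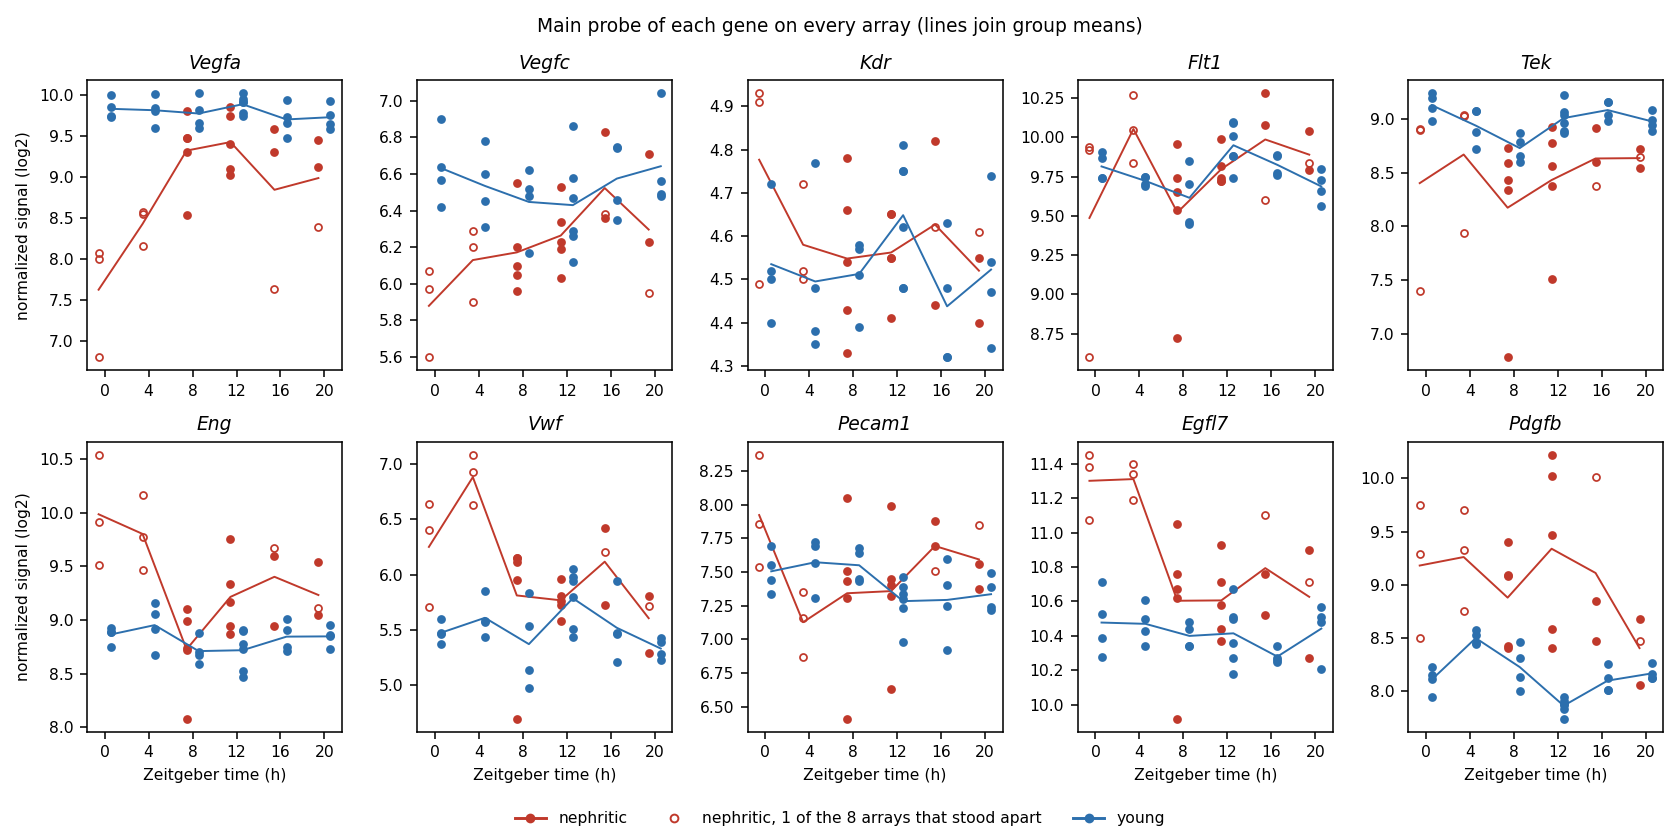
Normalized signal (log2) of the main probe of each gene on every array against Zeitgeber time in hours, nephritic in red left of young in blue, open red points for the 8 arrays that stood apart, lines through group means. The vertical scale differs between panels. Vegfa lay between 6.80 and 8.57 on the open points and between 9.48 and 10.02 on young arrays.

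The first comparison asked whether the level of these genes, averaged over the 6 times, differed in nephritic kidneys. By main probe, Eng, Vwf, Egfl7 and Pdgfb rose, Vegfa, Vegfc and Tek fell, and Kdr, Flt1 and Pecam1 did not pass the test (limma, Benjamini-Hochberg adjustment over all 16980 probes). The 4 of 10 higher and 3 of 10 lower compare with 32.7% of all probes higher and 31.7% lower, so the counts themselves do not set these genes apart. The median difference was 0.08 over the 10 genes and 0.03 over all 11559 genes. Without the 8 arrays, Eng, Egfl7 and Pdgfb rose and Vegfa and Tek fell, 3 higher and 2 lower of 10, against 22.8% and 23.8% of all probes. No probe of the 10 genes separated the 22 nephritic from the 26 young arrays, which 0.76% of all probes did with nephritic higher and 0.0471% with nephritic lower.

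**Figure D2:**
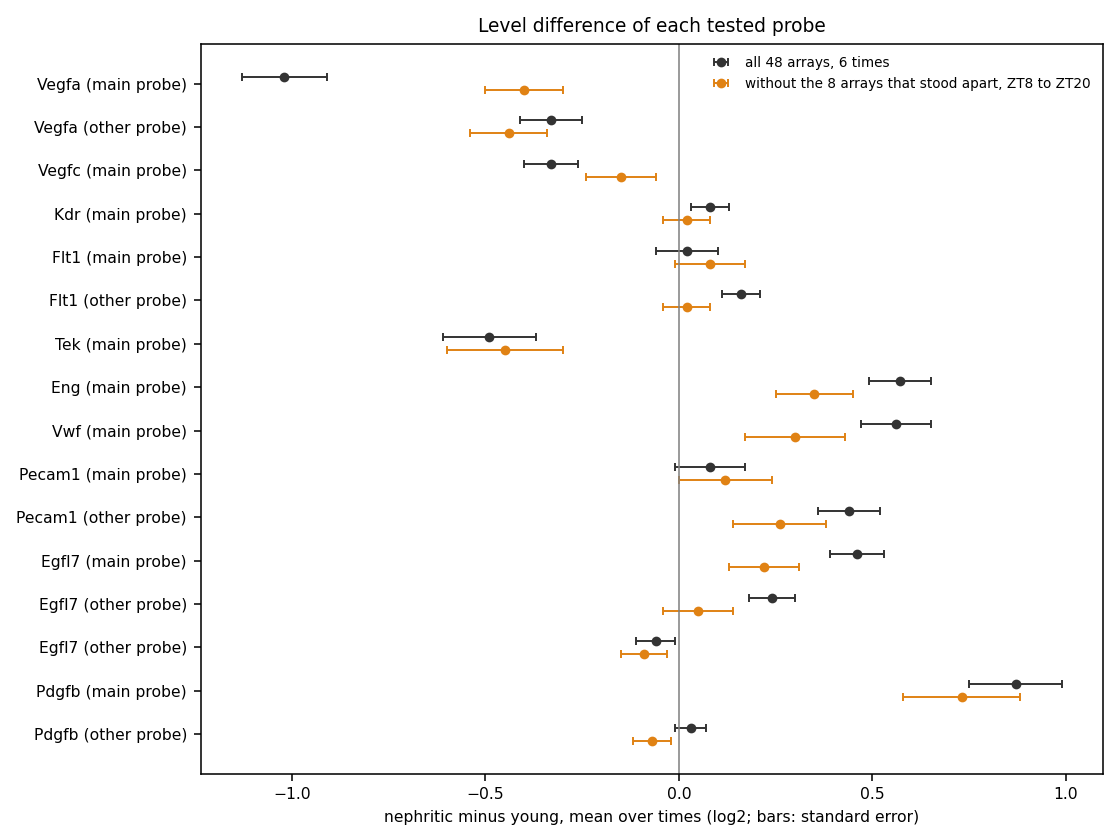
Difference in level, nephritic minus young (log2, mean over times, bars standard errors), for each of the 16 tested probes, with all 48 arrays in black and without the 8 arrays that stood apart in orange. The main Vegfa probe was at -1.02 with all arrays and at -0.40 without the 8, and Tek was at -0.49 and -0.45.

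Vegfa (chromosome 17, 46016993 to 46032377), the principal growth factor for endothelium, fell the most. Its main probe had a lowest, median and highest value of 6.80, 9.11 and 9.86 on nephritic arrays, against 9.48, 9.80 and 10.02 on young arrays. The mean was 2.03-fold lower (difference -1.02 ± 0.11, SE, adjusted p = 5.63e-10), with 21 of 22 nephritic arrays below the young mean of their time. The second probe fell less, with 7.07, 7.995 and 8.74 on nephritic arrays, against 7.89, 8.32 and 8.70 on young arrays (-0.33 ± 0.08, adjusted p = 0.000424). With the 8 arrays that stood apart left out, the probes gave similar values. The main probe was 1.32-fold lower (-0.40 ± 0.10, adjusted p = 0.00198) and the second 1.36-fold lower (-0.44 ± 0.10, adjusted p = 0.000571). With the 8 arrays as a covariate the main probe passed (-0.41 ± 0.15, adjusted p = 0.0255) and the second did not (-0.25 ± 0.13, adjusted p = 0.148).

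The probes parted at ZT0 and ZT4. On the main probe, Vegfa lay between 6.80 and 8.07 on the 3 nephritic ZT0 arrays, against 9.73 or more on each of the 4 young ZT0 arrays (mean 9.84 ± 0.12, SD), with no overlap and a 4.63-fold lower mean (adjusted p = 4.97e-07). On the second probe the same nephritic arrays read 8.17, 7.90 and 8.74, against 8.40, 8.33, 8.38 and 8.48 on the young arrays, which overlap (-0.13 ± 0.21). At ZT4 the difference was -1.39 ± 0.30 on the main probe and 0.04 ± 0.21 on the second. At ZT8 it was -0.45 ± 0.26 and -0.50 ± 0.18, and at ZT12 -0.46 ± 0.24 and -0.45 ± 0.16. Within ZT16, the array that stood apart read 7.63 on the main probe, against 9.31 and 9.59 on the other nephritic arrays, and within ZT20 it read 8.39, against 9.12 and 9.45. Over both times it was lower by 1.36 on the main probe and by 0.19 on the second. The probes were designed to RefSeq transcripts NM_009505 and NM_001025250, and what separates them on those arrays was not tested.

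**Figure D3:**
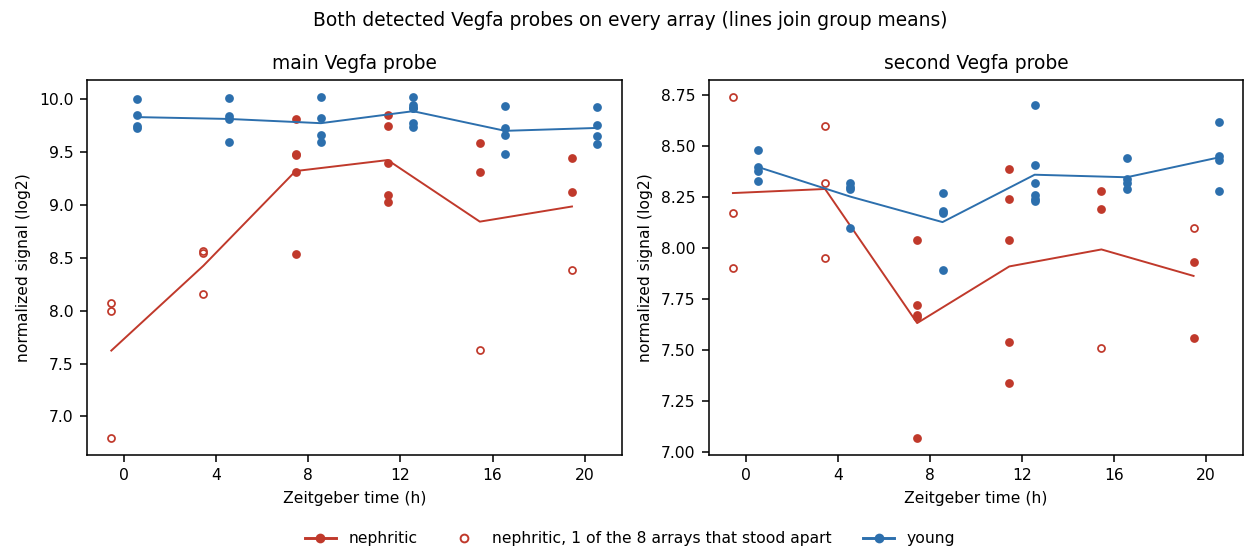
Normalized signal (log2) of the main Vegfa probe (left) and the second (right) on every array against Zeitgeber time in hours, nephritic in red left of young in blue, open red points for the 8 arrays that stood apart, lines through group means. At ZT0 the nephritic mean was 7.62 on the main probe, against 9.84 in young kidneys, and 8.27 on the second, against 8.40.

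Vegfc (chromosome 8, 54077532 to 54186454) fell 1.26-fold (-0.33 ± 0.07, adjusted p = 5.94e-05), with 5.60, 6.20 and 6.83 on nephritic arrays, against 6.12, 6.51 and 7.04 on young arrays (lowest, median, highest). Its difference was -0.75 at ZT0, where the groups did not overlap, and -0.05 at ZT16. Without the 8 arrays it did not pass (-0.15 ± 0.09, adjusted p = 0.173). Pdgfb, the pericyte-recruiting ligand, rose 1.83-fold (0.87 ± 0.12, adjusted p = 4.74e-08). It had 8.06, 8.97 and 10.22 on nephritic arrays, against 7.74, 8.13 and 8.57 on young arrays, and 21 of 22 nephritic arrays were above the young mean of their time. Pdgfb rose also without the 8 arrays (1.65-fold, adjusted p = 2e-04). Its largest difference was at ZT12, where nephritic arrays read 10.02, 10.22, 9.47, 8.58 and 8.40 and the 6 young arrays lay between 7.74 and 7.94 (2.79-fold, adjusted p = 3.36e-05). The titles of the nephritic ZT12 arrays began with codes found at no other nephritic time. Code and time therefore cannot be told apart for nephritic ZT12. Among blood pressure genes, the study itself singled out Vegfc as decreased and Pdgfb, endothelin 1 (Edn1) and Ptpro as increased. It used array data merged with RNA sequencing data, so the directions of these genes here are not independent evidence.

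Among the receptors, Tek fell 1.40-fold (-0.49 ± 0.12, adjusted p = 0.000528). It read 6.78, 8.59 and 9.04 on nephritic arrays, against 8.60, 8.99 and 9.24 on young arrays, with 20 of 22 nephritic arrays below the young mean of their time. The low tail came from 4 nephritic arrays, ZT8 replicate 4 at 6.78, ZT0 replicate 3 at 7.40, ZT12 replicate 1 at 7.51 and ZT4 replicate 3 at 7.94, while all young arrays were at 8.60 or above. Without ZT8 replicate 4 Tek was at -0.43 ± 0.10, and without the 8 arrays at -0.45 ± 0.15 (adjusted p = 0.012). With the 8 arrays as a covariate it did not pass (-0.41 ± 0.20, adjusted p = 0.109). Eng moved the other way, 1.49-fold higher (0.57 ± 0.08, adjusted p = 7.5e-08), with 8.08, 9.26 and 10.54 on nephritic arrays, against 8.47, 8.86 and 9.16 on young arrays, and it was 1.27-fold higher without the 8 arrays (adjusted p = 0.00527). At ZT0, Eng read 9.51, 9.91 and 10.54 on nephritic arrays, against 8.93, 8.89, 8.75 and 8.89 on young arrays, while at ZT8 the means were 8.72 and 8.71. The VEGF receptors showed no difference that passed: Flt1 was at 0.02 ± 0.08 (adjusted p = 0.833) and Kdr, near background, at 0.08 ± 0.05 (adjusted p = 0.156). Flt1 read 8.60, 9.83 and 10.28 on nephritic arrays, against 9.45, 9.76 and 10.10 on young arrays, and the lowest values, 8.60 and 8.72, were on nephritic ZT0 replicate 3 and ZT8 replicate 4. The second Flt1 probe passed with a small rise (0.16 ± 0.05, adjusted p = 0.00343), but it was detected on 7 nephritic and 3 young arrays and was at 0.02 ± 0.06 without the 8.

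Among the endothelial proteins, Egfl7 rose 1.37-fold on its main probe (0.46 ± 0.07, adjusted p = 8.26e-08), with 9.92, 10.76 and 11.45 on nephritic arrays, against 10.18, 10.41 and 10.71 on young arrays. A second Egfl7 probe rose by 0.24 ± 0.06 (adjusted p = 0.00137), and the third, near background, was at -0.06 ± 0.05. Without the 8 arrays the main probe was 1.17-fold higher (adjusted p = 0.0386) and the second did not pass (0.05 ± 0.09). Vwf rose 1.47-fold (0.56 ± 0.09, adjusted p = 1.87e-06), with 4.70, 5.96 and 7.08 on nephritic arrays, against 4.99, 5.47 and 6.05 on young arrays. It did not pass without the 8 arrays (0.30 ± 0.13, adjusted p = 0.0592), but passed with a covariate for them (0.49 ± 0.15, adjusted p = 0.0113) and over all arrays of ZT8 to ZT20 (0.32 ± 0.12, adjusted p = 0.0214). The highest Vwf values were the nephritic ZT4 arrays at 7.08, 6.93 and 6.63, all above the highest young array. Pecam1 depended on the probe: the main one read 6.41, 7.48 and 8.37 on nephritic arrays, against 6.92, 7.42 and 7.72 on young arrays (0.08 ± 0.09, adjusted p = 0.442), and the other read 5.92, 7.03 and 7.90, against 6.16, 6.63 and 7.04 (0.44 ± 0.08, adjusted p = 1.61e-05, and 0.26 ± 0.12 with adjusted p = 0.0654 without the 8 arrays). At ZT4 the main Pecam1 probe was at -0.45 ± 0.24 and the other at 0.87 ± 0.22, and the difference between probes was not tested.

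Time by time, each gene was counted by its main probe. More of the 10 genes passed at ZT0 and ZT4, where every nephritic array stood apart, than at any later time. Among the other probes clear of background, the second Vegfa probe was lower by limma at ZT8 (adjusted p = 0.0455) and ZT12 (0.0379). At ZT0 and ZT4 the second probes of Pecam1 (0.0133 and 0.00106) and Egfl7 (0.0336 and 0.00251) were higher. At ZT0, Eng, Vwf, Egfl7 and Pdgfb were higher and Vegfa and Vegfc lower (4 and 2 of 10, against 22.4% and 19.5% of all probes). At ZT4 the same 4 were higher and Vegfa lower (25.4% and 22.2%). At ZT8, 0 of 10 passed in either direction by limma (10.7% and 10.5%), 3 had an unadjusted p under 0.05 (Pdgfb, Tek and Vwf), and the groups overlapped for every gene, while 10.9% of all probes did not overlap with nephritic higher and 11.9% with nephritic lower. At ZT12, Eng and Pdgfb were higher and 0 lower (12.9% and 13.6%), with Tek lower at an unadjusted p under 0.05. In the fit without the 8 arrays, which leaves the ZT12 arrays as they are, Vegfa was also lower at ZT12 (-0.46 ± 0.16, adjusted p = 0.0313). At ZT16, Eng, Egfl7 and Pdgfb were higher and Vegfa lower (12.3% and 11.9%). The fit without the 8 arrays leaves 2 nephritic arrays at ZT16. In it, 0 of the 10 passed at ZT16 by limma and 0 had an unadjusted p under 0.05. The share of all probes passing there was not counted. Vegfa was at -0.25 ± 0.23 at ZT16 in that fit (adjusted p = 0.556), against -0.86 ± 0.30 with all arrays. At ZT20, 0 of 10 passed by limma (3.79% and 3.75%) and 1 (Vegfa) had an unadjusted p under 0.05, and Vegfa and Tek (lower) and Eng (higher) did not overlap between the 3 nephritic and the 4 young arrays. Of all probes, 12.5% did not overlap at ZT20 with nephritic lower and 13.6% with nephritic higher, so 3 of 10 is near the background.

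**Figure D4:**
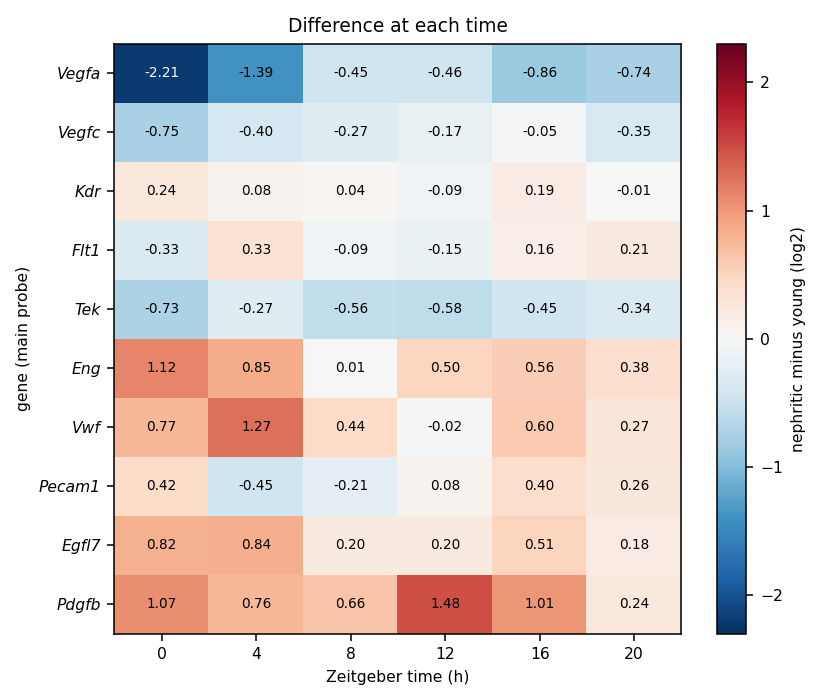
Difference, nephritic minus young (log2), of the main probe of each gene (rows) at each Zeitgeber time in hours (columns). Vegfa at ZT0 (-2.21) and ZT4 (-1.39) and Pdgfb at ZT12 (1.48) and ZT0 (1.07) stand out, and Tek was below 0 at all 6 times, between -0.27 and -0.73.

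The next comparisons asked which of these genes varied over the day. In young kidneys Pdgfb, Tek and Flt1 passed limma's F-test for a difference among the 6 times, 3 of 10 against 17.2% of all probes. Pdgfb had the clearest course (adjusted p = 0.000132). It read 8.53, 8.57, 8.45 and 8.44 on the young ZT4 arrays and 7.74 to 7.94 on the 6 young ZT12 arrays, with the other times between 7.94 and 8.46, a range of group means of 0.64. In order, the young means were 8.50 ± 0.06 at ZT4, 8.22 ± 0.20 at ZT8, 8.16 ± 0.06 at ZT20, 8.11 ± 0.12 at ZT0, 8.10 ± 0.11 at ZT16 and 7.86 ± 0.07 at ZT12 (SD), and the 4 in the middle lie within their spread. In nephritic kidneys the Pdgfb means ranged over 0.94, from 8.40 ± 0.32 at ZT20 to 9.34 ± 0.82 at ZT12, and did not pass (adjusted p = 0.509), while the difference between the time courses did not pass either (adjusted p = 0.173).

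Tek in young kidneys was highest at ZT0 (9.13 ± 0.12) and lowest at ZT8 (8.73 ± 0.12, adjusted p = 0.0332), and Flt1 was highest at ZT12 (9.95 ± 0.14) and lowest at ZT8 (9.61 ± 0.19, adjusted p = 0.0406). For Flt1 the ZT12 mean joined 2 array sets of 3 each with different title codes, at 10.07 and 9.84, and without the higher one it did not pass (adjusted p = 0.266). Young arrays of every other time carried a single title code, so such a code and time cannot be told apart in young kidneys. With the code as a random block, or over ZT8 to ZT20 alone, Pdgfb remained and Tek and Flt1 did not pass. The near-background Egfl7 probe also passed in young kidneys (adjusted p = 0.0116), with the ZT8 arrays at 4.89 to 5.08.

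In nephritic kidneys Vegfa, Eng, Vwf and Egfl7 passed, 4 of 10 against 17% of all probes, and all 4 had their extreme at ZT0 or ZT4. Vegfa means in ascending order were 7.62 ± 0.72 at ZT0, 8.43 ± 0.24 at ZT4, 8.84 ± 1.06 at ZT16, 8.99 ± 0.54 at ZT20, 9.32 ± 0.47 at ZT8 and 9.43 ± 0.37 at ZT12 (adjusted p = 0.0275), and from ZT4 upward neighbours lie within their spread. Young Vegfa means lay between 9.70 and 9.89 (adjusted p = 0.613). Eng ranged from 9.99 ± 0.52 at ZT0 to 8.72 ± 0.40 at ZT8 (adjusted p = 0.0213), Vwf from 6.88 ± 0.23 at ZT4 to 5.61 ± 0.28 at ZT20 (adjusted p = 0.0397) and Egfl7 from 11.31 ± 0.11 at ZT4 to 10.60 ± 0.42 at ZT8 (adjusted p = 0.0351). The time courses of nephritic and young kidneys differed by the interaction test for the same 4 genes, Vegfa (adjusted p = 0.00591), Vwf (0.0292), Egfl7 (0.0366) and Eng (0.0382), against 20.2% of all probes. Without the 8 arrays, or with a covariate for them, 0 of 10 passed either test by limma, and at an unadjusted p under 0.05 these numbers were 0 for time and 1 for the interaction. Of all probes, 6 passed the nephritic time test and 67 the interaction test without the 8. Time and the property by which the arrays of ZT0 and ZT4 stood apart cannot be told apart at those times.

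The genes also differed in how much kidneys of the same time and disease state varied. The residual SD around the group mean was 0.63 in nephritic and 0.11 in young kidneys for Pdgfb (ratio 5.57), 0.62 and 0.13 for Tek (4.95), 0.58 and 0.15 for Vegfa (3.8) and 0.39 and 0.12 for Flt1 (3.33). Kdr (1.08) and Vegfc (1.09) varied alike in both. With all arrays, the median ratio was 2.48 over the 10 genes and 1.62 over all genes tested. Ratios were also taken with both the 8 arrays and nephritic ZT8 replicate 4 left out. They were 5.49 for Pdgfb, 3.14 for Tek, 2.16 for Eng, 2.1 for Pecam1, 1.91 for Vegfa and 1.71 for Egfl7. For Flt1 the ratio was 1.25, for Vegfc 1.09, for Kdr 0.953 and for Vwf 0.949, against 1.66 for Vwf with all arrays. The ratio over all genes is not given for that setting. Deviations from the group mean, over 22 nephritic arrays that all genes share, correlated between Flt1 and Tek (Pearson r = 0.83), Vegfa and Flt1 (0.73), Vegfa and Tek (0.69), Flt1 and Vwf (0.70) and Eng and Egfl7 (0.73), while Vegfa and Pdgfb ran opposite (-0.72). Over the 26 young arrays the same pairs gave 0.02, 0.16, -0.02, -0.42, 0.26 and -0.49. These are descriptions, and young deviations were smaller. The nephritic correlations of Flt1 rested on few arrays. They were 0.80 with Tek, 0.60 with Vegfa and 0.73 with Vwf over the 14 arrays left without the 8, 0.74, 0.67 and 0.50 over the 21 without ZT8 replicate 4, and 0.32, -0.11 and -0.26 over the 13 without both. Those of Vwf turned round over the 13 arrays, at -0.51 with Vegfa and -0.44 with Tek, against 0.35 and 0.65 over all 22. Over the same 13 Vegfa and Tek gave 0.65, Eng and Egfl7 0.59, and Vegfa and Pdgfb -0.94. Against the mean of 18 endothelial marker genes, deviations of Tek correlated at 0.83 in nephritic and 0.62 in young kidneys, Egfl7 at 0.71 and 0.29, and Pdgfb at -0.10 and -0.22.

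**Figure D5:**
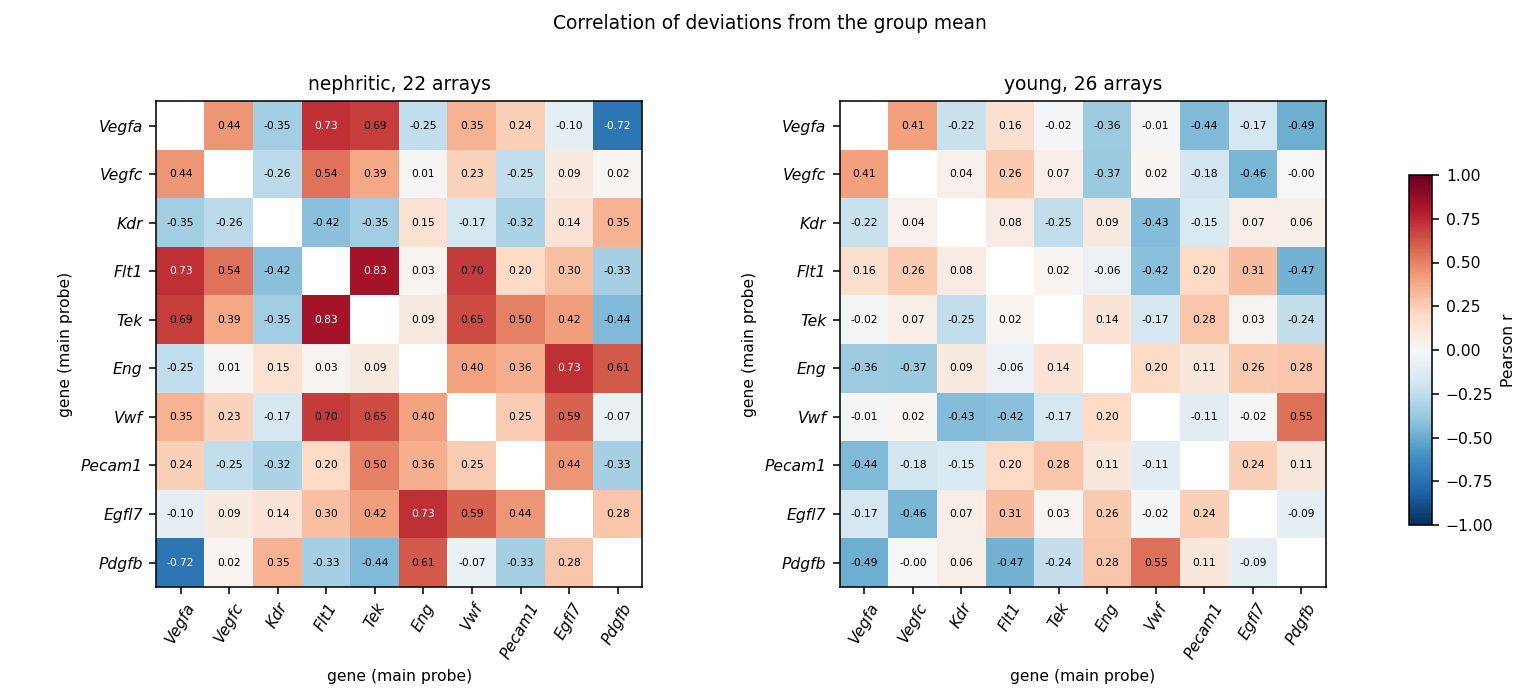
Pearson correlation between genes (main probes) of deviations from the group mean, over 22 nephritic arrays (left) and 26 young arrays (right). Vegfa, Flt1, Tek and Vwf gave positive values with each other over the 22 nephritic arrays, from 0.35 to 0.83, but over the 13 left without the 8 that stood apart and ZT8 replicate 4, 4 of these 6 pairs were below 0 (-0.51 to -0.11), and Flt1 with Tek was at 0.32 and Vegfa with Tek at 0.65.

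The other genes of these pathways were taken from lists and counted by the same test. Of all probes, 32.7% were higher and 31.7% lower with all arrays, and 22.8% and 23.8% without the 8. Every list count below stands against these shares. Of 4 further VEGF ligands and receptors with a kept probe, Nrp1, the neuropilin co-receptor, rose 1.54-fold (adjusted p = 5.83e-11), Vegfb fell 1.29-fold (adjusted p = 7.18e-08), and Vegfd and Flt4 did not pass. Of 7 hypoxia pathway genes 4 fell and 0 rose (limma, 0 at an unadjusted p under 0.05): the oxygen sensor Egln1 (1.67-fold lower), Hif1a (1.57-fold), Vhl (1.41-fold, detected on 15 of 22 nephritic arrays and all young ones) and Epas1 (1.22-fold). Egln1, Hif1a and Epas1 fell without the 8 arrays too, Vhl did not pass (-0.12, adjusted p = 0.235), and Egln3, another oxygen sensor, rose (0.31, adjusted p = 0.00769), against -0.05 with all arrays. Of 6 angiopoietin and TIE genes, 4 fell with Tek: the TIE2 ligands Angpt1 and Angpt2 (1.28-fold each), the TIE2 phosphatase Ptprb (1.21-fold) and Foxo1 (1.11-fold), and without the 8 arrays Angpt1 and Foxo1 passed, Angpt2 did not (-0.25, adjusted p = 0.134) and Ptprb turned to 0.19 (adjusted p = 0.122). Angpt4 passed with a rise near background (detected on 4 nephritic and 0 young arrays), which was lost without the 8 arrays (0.08, adjusted p = 0.232), and Tie1 was at 0.16 ± 0.09 (adjusted p = 0.114). By the time tests, Angpt2 (adjusted p = 0.00464) and Vegfb (0.00734) varied in young kidneys, against 17.2% of all probes. Arnt (0.0266) varied in nephritic kidneys, against 17%, and Vhl passed the interaction test (adjusted p = 0.0439), against 20.2%. The nephritic mean was highest at ZT0 for Arnt and lowest at ZT4 for Vhl, times at which every array stood apart. The Arnt and Vhl results are not given without the 8 arrays. In that setting, 6 of all 16980 probes passed the nephritic time test and 67 the interaction test.

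Of 10 genes of endoglin signalling, 4 rose with Eng, led by the ligand Tgfb1 (2.41-fold, adjusted p = 2.75e-11) and the receptors Tgfbr1 and Tgfbr2 (1.27-fold and 1.26-fold), with Acvrl1 1.15-fold and near background. Another 5 fell, led by the BMP target genes Id3 and Id1 (1.68-fold and 1.67-fold) and by Smad1 (1.42-fold). The Smad1 and Smad5 values turned to 0.20 and 0.07 without the 8 arrays (adjusted p = 0.0511 and 0.335), while the other 7 calls kept their direction. Smad1 and Smad5 passed the interaction test with all arrays (adjusted p = 4.87e-05 and 0.00216) and not without the 8 (0.988 and 0.55). Of 4 further PDGF genes, Pdgfrb, the receptor of PDGF-B on mural cells, rose 1.54-fold (adjusted p = 5.9e-05) and Pdgfc fell 1.56-fold (adjusted p = 4.08e-09). In young kidneys 3 varied over time, Pdgfrb (0.00193), Pdgfra (0.00291) and Pdgfa (0.0147), against 17.2% of all probes. Pdgfa also passed the interaction test with all arrays (adjusted p = 0.0279), against 20.2% of all probes. Its nephritic mean was lowest at ZT0, where every array stood apart, and its interaction result is not given without the 8.

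Marker lists were counted in the same way, against the same 32.7% and 31.7% of all probes. Of 18 endothelial genes 5 rose (27.8%), led by Mmrn2 (1.42-fold), Icam2 (1.38-fold) and Nos3 (1.28-fold). Another 4 fell (22.2%), led by Sox18 and Adgrl4 (1.24-fold and 1.23-fold), and 9 did not pass, among them Cdh5, Emcn, Esam and Plvap. Both endothelial shares were below those of all probes. The list mean had a lowest, median and highest value of 6.59, 7.53 and 8.05 on nephritic arrays, against 7.31, 7.48 and 7.58 on young arrays. Of the 18, 5 varied over time in nephritic and 3 in young kidneys, against 17% and 17.2% of all probes. The interaction test was passed by 7 of the 18, against 20.2% of all probes. These time and interaction counts are not given without the 8 arrays. Leaving out the 8 arrays, none of the 9 level calls was kept. By limma 0 rose (1 at an unadjusted p under 0.05), against 22.8% of all probes. Sox18 was at -0.24 (adjusted p = 0.0891), and Adgrl4, Cd93 and Ptprb were above 0 (0.06, 0.15 and 0.19). Another 2 genes fell (11.1%, against 23.8% of all probes), Robo4 (-0.32, adjusted p = 0.0261) and Rasip1 (-0.26, adjusted p = 0.0465). Of 4 glomerular endothelial genes, Gpihbp1 (1.51-fold) and Nostrin (1.19-fold) rose, also without the 8 arrays, where Ehd3 fell (-0.30, adjusted p = 0.0138). Of 9 genes of activation and coagulation, Edn1 (3.50-fold), Icam1 (2.97-fold), Vcam1 (2.82-fold) and Selp (1.25-fold) rose and Esm1 (2.35-fold) and Thbd (1.25-fold) fell, but Thbd turned round without the 8 arrays (0.41, adjusted p = 0.0047), and tubular, mural and immune cells also express Icam1, Vcam1 and Edn1. Of 9 arterial and venous genes 4 rose, led by the venous factor Nr2f2 (1.68-fold), and 2 fell, and of 4 lymphatic genes Pdpn and Ccl21a rose. Without the 8 arrays Gja4 (0.18, adjusted p = 0.106), Notch4 (0.11, adjusted p = 0.287), Efnb2 (-0.08, adjusted p = 0.458) and Ccl21a (0.29, adjusted p = 0.241) no longer passed.

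Marker genes of other cell types, some of which carry some of the 10 genes, were counted too. Of 8 mural cell genes 6 rose (5 without the 8 arrays, which lost Des) and 0 fell (limma, 0 at an unadjusted p under 0.05), and their mean was 6.42, 7.06 and 7.94 on nephritic arrays, against 6.35, 6.58 and 6.78 on young arrays. All 7 myeloid genes rose (median difference 1.63, list mean 7.04 to 9.37 on nephritic and 6.28 to 6.89 on young arrays), as did all 5 lymphocyte genes (5.07 to 7.97 and 4.57 to 5.03), and these 12 rose without the 8 arrays too. Of 6 platelet genes Itga2b and Treml1 rose, of which Itga2b was at 0.04 without the 8 arrays (adjusted p = 0.725), while Pf4, Gp9 and Ppbp stayed near background (list mean 4.68 to 4.98 on nephritic and 4.56 to 4.79 on young arrays). Of 5 podocyte genes Cdkn1c and Ptpro rose and Wt1 and Clic5 fell, and without the 8 arrays Ptpro (0.22, adjusted p = 0.0859) and Wt1 (-0.06, adjusted p = 0.49) no longer passed. Of 3 proximal tubule genes 2 fell (list mean 8.22 to 9.60 on nephritic and 9.23 to 9.73 on young arrays), and of 6 thick limb and collecting duct genes 1 rose (Aqp2, not without the 8 arrays, 0.15 with adjusted p = 0.247) and 3 fell (9.48 to 10.32 and 9.93 to 10.34), so kidney epithelium was measured in every group. Of 6 adipose genes 0 passed by limma, and 0 had an unadjusted p under 0.05. The part of these cells in the levels of Pecam1, Vwf, Pdgfb and Vegfa was not tested.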

How the data were processed

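Kidney RNA from 48 PBS-perfused mice was hybridised to 1-colour Illumina MouseRef-8 v2.0 chips. The authors scanned the chips and extracted with GenomeStudio 1 signal intensity per probe, deposited on a linear scale without normalization between arrays or background subtraction, and a detection p-value, deposited beside it, that sets each probe against negative control beads. Aligner and build do not apply. The authors' processed intensity table (quantile-normalized, median 106.8 to 106.9) served as an alternative.

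Signals were corrected, quantile-normalized and log2-transformed by neqc (limma 3.58.1, R 4.3.3, offset 16), which compresses differences of dim probes. Probes entered the tests when their detection p was under 0.05 on 3 or more arrays. Differences came from 12 group means over 48 arrays in limma, averaged over 6 times, and the interaction from the same fit. Time was tested per diagnosis (F-test, 5 degrees of freedom). P-values were Benjamini-Hochberg adjusted over 16980 probes at 0.05, in limma throughout, and ± after a difference is SE. For arrays, their number and the signal over background limit precision. No array pair held identical values (highest correlation 0.996). The fits were tested on simulated data.

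Genes and lists were chosen with earlier results of these data known. Named were all probes of the 10 genes, up to 3 list genes per direction with the largest change, and the 3 genes most alike over 12 group means. Up to 2 list genes with the smallest time or interaction p were named for some lists only. Others named (Flt4, Vegfd, Tie1, Acvrl1, Angpt4, Epas1, Foxo1, Cdh5, Emcn, Esam, Plvap, Pf4, Gp9, Ppbp, Pabpc1, Egln3, Robo4, Rasip1, Cd93, Ehd3, Gja4, Notch4, Efnb2, Des, Aqp2 and the Smad genes) were chosen after their values were seen. Alternatives were other normalizations, filters, arrays, blocks and a 24 h cosinor. Leaving out nephritic ZT8 replicate 4, and any array for second probes, lists, single times, correlations or likeness, was chosen after seeing the data.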

Additional observations from a re-analysis of the deposited data

Results flagged for a closer look

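Only groups of 4 to 6 arrays were searched, which in nephritic kidneys are those of ZT8 and ZT12. In them, 6 of 96 combinations of probe and group held an array far from the others by Dixon's criterion, and chance gives about 1 in 20. In nephritic kidneys all 3 were ZT8 replicate 4: Tek at 6.78 (others 8.34 to 8.73), Vwf at 4.70 (5.95 to 6.15) and the second Egfl7 probe at 7.29 (8.20 to 8.48). That array also had the lowest endothelial list mean (6.59). In young kidneys they were Vegfc on ZT20 replicate 1 at 7.04 (others 6.48 to 6.56), the second Vegfa probe on ZT4 replicate 2 at 8.10 (8.29 to 8.32) and the second Egfl7 probe on ZT4 replicate 4 at 8.06 (8.29 to 8.33).

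The time course differed between nephritic and young kidneys (limma interaction, adjusted p) for the main probes of Vegfa (0.00591), Vwf (0.0292), Egfl7 (0.0366) and Eng (0.0382), and for 2 probes near background, of Flt1 (0.00273) and of Egfl7 (0.0149). Without the 8 arrays that stood apart, these 6 probes did not pass, with adjusted p between 0.0584 and 0.969.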

How the results depend on the processing

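Of the 10 genes, 7 differed in level with all arrays. The number was 5 without the 8 arrays that stood apart (Vegfc and Vwf lost) and 5 with a covariate for them (Vegfc and Tek lost), 8 with array weights (Flt1 added, 0.138, adjusted p = 0.028), and 7 when any single array was left out. By main probe, Vegfa stayed lower (-1.02 to -0.402), and Eng (0.347 to 0.582), Egfl7 (0.224 to 0.486) and Pdgfb (0.547 to 0.878) stayed higher. These main probes were past the threshold in all 11 alternatives. Flt1, which did not pass, lay between -0.0168 and 0.0952 when 1 array was left out, below 0 without nephritic ZT0 replicate 1 or 2 or ZT16 replicate 1.

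The number of genes varying over time in young kidneys was 3, and 1 (Pdgfb) over ZT8 to ZT20 or with the title code as a block. It was 1 to 3 when 1 array was left out, with 1 without ZT0 replicate 2 or ZT8 replicate 3. Flt1 was lost without any 1 of 15 of the 26 young arrays (adjusted p up to 0.0901) and Tek without any 1 of 6 (up to 0.105). In nephritic kidneys it was 4, and 0 without the 8 arrays or with their covariate, 1 with the title code as a block (Eng), 2 without a filter on dim probes (Vegfa and Eng) and 1 by 24 h cosinor (Vegfa). It was 0 to 4 when 1 array was left out, and 2 or fewer without ZT0 replicate 3, any ZT4 replicate or ZT12 replicate 3. The time courses differed for 4 genes, and for 0 without the 8 arrays, 0 with their covariate and 0 with the title code as a block, 1 without the second array set of young ZT12 and 1 by cosinor (Vegfa in both). With 1 array left out it was 1 to 5, and 2 or fewer without young ZT0 replicate 2, young ZT4 replicate 1 or 4, nephritic ZT0 replicate 3 or nephritic ZT4 replicate 1 or 2. Lost calls without the 8 arrays also reflect fewer arrays and times by construction. Array weights did not reach their tolerance in 2 fits. Kdr was dropped by the stricter filter on dim probes. No paired analysis was possible because the labels give no replicate numbers that join arrays of different groups.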

Other observations

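The 3 genes most like each of the 10 over the 12 group means are given as a description with no test. Over the 8 group means left without the arrays that stood apart, the same 30 pairs gave r between 0.34 (Eng with H3c1) and 0.99 (Pdgfb with Tnc), with a median of 0.85. Vegfa ran closest to the nitrilase gene Nit1 (Pearson r = 0.985), Rgl1 (0.984) and the mitochondrial transcription factor gene Tfb1m (0.982), which were also lower in nephritic kidneys (-1.04, -1.17 and -0.65). Egfl7 ran closest to Exoc3l4 (0.984), Taf10 and Klhdc3 (0.981 each), Vwf to Fibcd1 (0.979), Ntn5 (0.975) and Rsph9 (0.971), and Eng to Zfp385a, the adenylate cyclase gene Adcy4 (0.969 each) and H3c1 (0.965). Pdgfb ran closest to Rasl10a and the chemokine gene Cx3cl1 (0.973 each) and to the matrix gene Tnc (0.969). Tek ran closest to Mto1 (0.938), Mrps31 (0.931) and Trpc1 (0.928), and Vegfc to Pex2 (0.952), Med21 (0.943) and Pno1 (0.939). For Flt1 (Csf3, 0.898, then Traf6 and Gxylt1), Pecam1 (Habp4, 0.927, then Psmb4 and Pabpc4) and near-background Kdr (Scarb1, 0.882, then Mfsd6 and Hspb7) the likeness was lower.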
